A study of Mus musculus with 2 samples.

Results

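Collagen chain genes were examined on 2 arrays of mouse skeletal muscle, 1 from transgenic mice that overexpress the nuclear receptor RXRγ and 1 from non-transgenic control mice. Members were the probe sets that the platform annotation assigns to a single gene with a symbol of the form Col, a number, the letter a and a number, such as Col1a1. This rule found 42 genes on 82 probe sets, out of 18194 genes named alone and 45101 probe sets in all. Each probe set pools several short oligonucleotides complementary to the same transcript. Of the 44 collagen chain genes in the RefSeq annotation of GRCm38.p6, Col6a6 and Col28a1 had no such probe set.

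The RXRγ mice (line 4-3) carry an RXRγ transgene driven by the human α-actin promoter, and both groups were C57BL6 females at 4 months of age. Muscle RNA was pooled within each genotype before hybridization, and the number of animals per pool is 5 in the series' design text and 3 in the extraction protocol. The labels name the tissue as skeletal muscle without saying which muscle, and the arrays cover 1 transgenic line. Because each genotype is represented by a single pool on a single array, the values carry no error between animals, no test between genotypes could be made, and every difference below describes these 2 arrays. The Rxrg signal, which checks the labels, was 9172.1 in RXRγ mice and 334.5 in control mice (27.4-fold).

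Collagens are the main structural proteins of the extracellular matrix, and their chains wind around each other in groups of 3 into a triple helix. Types I, III and V form the fibrils of the connective tissue around muscle fibres and of tendon. Type IV forms the network of the basement membrane that wraps each fibre and capillary, and type VI forms beaded filaments next to that membrane. Mutations in the type VI chains cause inherited muscular dystrophies in humans. In muscle most collagen is made by fibroblasts and related interstitial cells, and type IV also by fibres and endothelial cells.

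Of the 42 genes, 11 had a probe set above 250 in array units on the brighter array, the level that the study's methods use, and are called measured below. They are both chains of type I, the chain of type III, Col4a1 and Col4a2, 3 chains of type V and 3 chains of type VI. Another 3 genes lay between 150 and 250 and 28 never reached 150, under which no fold was computed. Each gene was given the average, across its probe sets above 250, of the log2 of the RXRγ signal over the control signal, and it was counted as higher or lower at 0.4, the limit taken from the study's methods.
Most of the 11 measured collagen chains differed little between the arrays, and mostly in the same direction. Only Col5a3 was counted as higher (1 of 11, or 9.09%), against 16.8% of the 3780 genes measured on these arrays, and none was counted as lower, against 20.1%. Over all genes 636 were higher and 760 lower, and with the arrays scaled to equal medians 504 were higher and 984 lower, with the collagen counts as before. The log2 ratio was above 0 for 9 of the 11 genes (81.8%), against 46.5% of all genes, and the 2 others were the chains of type I. The median over the 11 genes was 0.26, against -0.04 over all genes measured, whose quartiles were -0.32 and 0.26. Between 0.1 and 0.4, a band chosen after the values were seen, lay 8 of the 11 genes (72.7%) and 20.3% of all genes. Because a gene could pass the filter through its brighter array alone, the counts were repeated for a mean signal above 250, which kept 10 collagen genes, 8 of them above 0 against 46.8% of all genes, and left none counted as higher since Col5a3 dropped out.

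**Figure D1:**
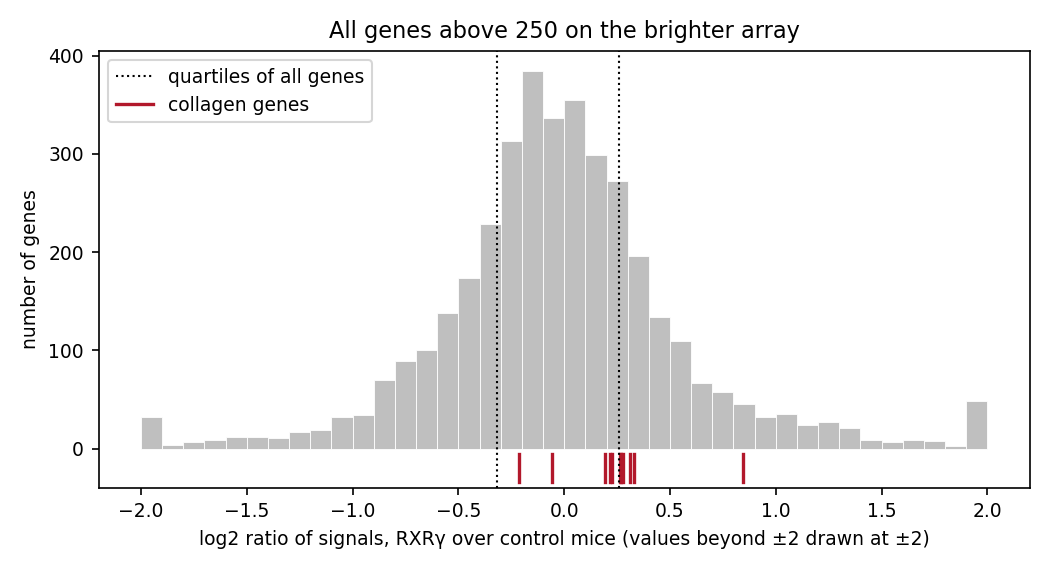
Histogram of log2 ratios, RXRγ over control, of the 3780 genes above 250 on the brighter array (x axis, log2; y axis, number of genes; values beyond 2 in either direction drawn at the edge), with a red line for each of the 11 collagen genes and dotted lines at the quartiles of all genes, -0.32 and 0.26. A group of 8 collagen genes lies around the upper quartile, Col1a1 and Col1a2 lie below 0 and Col5a3 stands alone at 0.85 (0.76 with the control signal taken as 150).

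Type IV collagen was measured through Col4a1 and Col4a2, the chains that are found in nearly all basement membranes. These genes are direct neighbours, transcribed away from each other, so that the promoter windows in the RefSeq table (250 bases before to 50 bases after the start, GRCm38.p6) overlap by 78 bases. Both windows are printed to show this overlap, and whether it bears on the ratios of the pair was not tested. Capitals mark the 78 shared bases, which run in opposite directions in the windows of Col4a1 (chr8:11312777-11313076, minus strand) and Col4a2 (chr8:11312555-11312854, plus strand).
Col4a1: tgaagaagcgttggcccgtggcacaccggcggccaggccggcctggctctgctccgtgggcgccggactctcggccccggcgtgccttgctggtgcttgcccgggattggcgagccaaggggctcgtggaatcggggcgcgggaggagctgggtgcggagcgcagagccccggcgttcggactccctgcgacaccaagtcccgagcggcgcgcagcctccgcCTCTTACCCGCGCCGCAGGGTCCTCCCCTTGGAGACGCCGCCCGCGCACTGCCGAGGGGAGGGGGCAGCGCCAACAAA
Col4a2: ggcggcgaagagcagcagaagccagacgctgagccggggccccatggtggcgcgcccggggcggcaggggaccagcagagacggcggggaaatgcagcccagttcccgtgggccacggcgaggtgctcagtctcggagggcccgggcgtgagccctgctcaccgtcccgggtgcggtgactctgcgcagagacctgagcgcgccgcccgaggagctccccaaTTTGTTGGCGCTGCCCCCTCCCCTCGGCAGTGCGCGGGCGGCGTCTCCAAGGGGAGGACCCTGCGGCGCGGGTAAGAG
The 2 probe sets of Col4a1 had signals of 338.0 and 945.1 in RXRγ mice, against 307.9 and 766.5 in control mice, which gives log2 ratios of 0.13 and 0.30. The single probe set of Col4a2 had 433.1 in RXRγ mice and 359.1 in control mice, a log2 ratio of 0.27. The gene values of 0.22 and 0.27 lay closer together than the 2 probe sets of Col4a1. Such closeness was not particular to the pair, as Col6a1 (0.28) and Col6a2 (0.26) lay closer to Col4a2 than Col4a1 did. The remaining chains of type IV, which replace them in kidney, lung, eye and other specialised membranes, stayed under 150. The brightest signal on either array was 83.0 for Col4a5, 52.7 for Col4a6, 22.4 for Col4a3 and 21.6 for Col4a4.

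Motifs were searched in the same windows, on both strands and with overlaps between motifs allowed. Windows were given for 9 of the 11 measured genes, 10 windows in all, with none for Col1a1 and Col5a2. The GC box (GGGCGG) occurred in 7 of the 10 windows and in 35.7% of the 32851 windows of all genes. These windows belong to Col1a2, Col4a1, Col4a2, Col5a1, Col5a3 and Col6a2, which has 2 overlapping windows. The GC box of Col4a1 lies in the 78 bases shared with Col4a2 and is counted for both. The CCAAT box (CCAAT) occurred in 4 of the 10, those of Col1a2, Col4a1, Col4a2 and Col5a3, and in 37.4% of all windows. The TATA box (TATAAA) occurred in 1, that of Col3a1, and in 13.6% of all. The half-site recognised by many RXR heterodimers (AGGTCA) occurred in none of these 10 windows, in 8 of the 36 windows of all collagen genes and in 16.3% of all windows. The printed window of Col4a1 holds 1 CCAAT box and 1 GC box, and that of Col4a2 holds 1 CCAAT box and 3 GC boxes. These matches describe the letters of the windows alone, and sequence farther from the start was not examined.

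Type VI collagen, the filament that links the fibre's basement membrane to the surrounding matrix, gave even values. The signal of Col6a1 was 614.1 in RXRγ mice and 506.9 in control mice (log2 ratio 0.28). The probe sets of Col6a2 had 395.3 and 792.0 in RXRγ mice against 342.5 and 635.1 in control mice, with log2 ratios of 0.21 and 0.32. Col6a3, the longest of the 3 chains, had 886.5 in RXRγ mice and 706.0 in control mice (log2 ratio 0.33). All 4 probe sets were thus brighter in RXRγ mice, and the 3 gene values spanned 0.26 to 0.33, below the limit of 0.4. Col6a1 and Col6a2 are neighbours with no other protein-coding gene between them, with log2 ratios of 0.28 and 0.26. The chains Col6a4 and Col6a5 did not exceed 25.7 and 20.6 on either array.

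**Figure D2:**
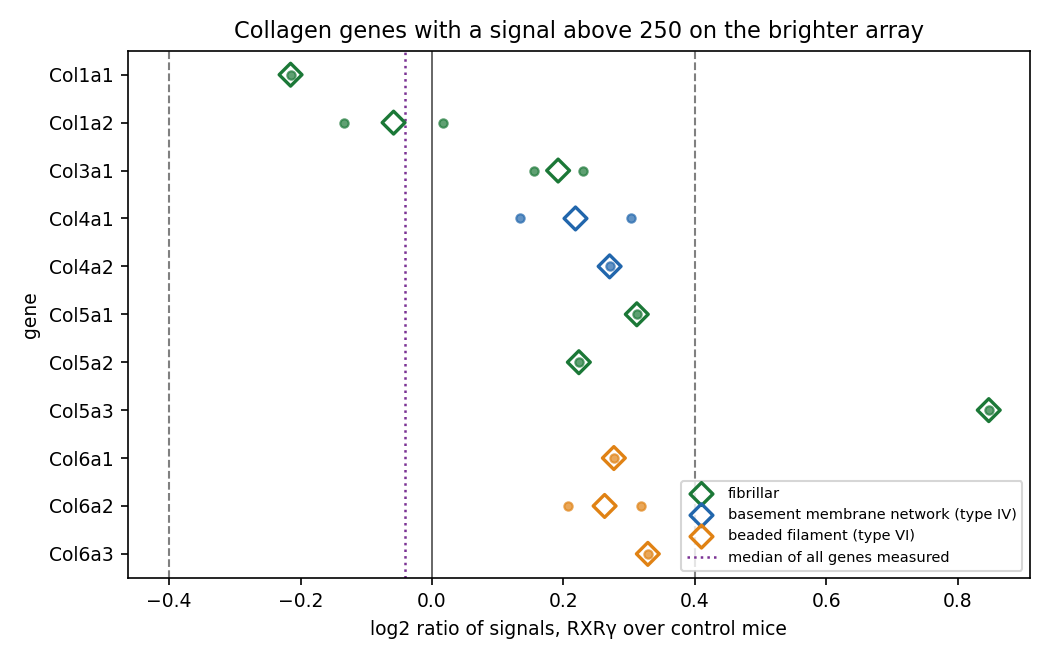
Log2 ratios, RXRγ over control, of the 11 measured collagen genes (x axis, log2; 1 row per gene), with open diamonds for gene values, filled points for probe sets above 250, colours for the structural class, dashed lines at 0.4 in either direction and a dotted line at the median of all genes (-0.04). The type IV and VI genes lie between 0.22 and 0.33, Col1a1 lies at -0.22 and only Col5a3 lies beyond 0.4.

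Among the fibrillar collagens the chains of type I stood on the other side of 0 from those of types III and V. Type I is the chief collagen of tendon and of the perimysium, the sheath around fibre bundles. The brighter probe set of Col1a1 had 527.9 in RXRγ mice and 612.8 in control mice, a log2 ratio of -0.22. Its other probe set had 137.4 in RXRγ mice and 249.7 in control mice, and so missed the filter by less than 1 unit. Its signal in RXRγ mice was under 150, so only a bound can be given, at least 1.66-fold lower. With probe sets above 150 admitted, the gene value of Col1a1, with the measured ratio of this dim probe set averaged in, was -0.54 and it would be counted as lower. Col1a2, which encodes the partner chain, had 757.9 and 1612.5 in RXRγ mice against 831.7 and 1593.4 in control mice. Its log2 ratios of -0.13 and 0.02 lay on both sides of 0, with a gene value of -0.06, and its remaining probe set was near background with 9.6 in RXRγ mice, against 9.7 in control mice.

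Type III collagen, which forms thin fibrils mixed with type I in the endomysium around single fibres, had a log2 ratio of 0.19. The 2 probe sets of Col3a1 had 3089.0 and 328.1 in RXRγ mice, against 2775.0 and 279.9 in control mice (0.15 and 0.23). The value of Col3a1 exceeded that of Col1a1 by 0.41 on the log2 scale. Col3a1 lies next to Col5a2 on its chromosome with no protein-coding gene between them, with log2 ratios of 0.19 and 0.22.

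Type V collagen sits inside type I fibrils and sets their diameter. Col5a1 had 353.6 in RXRγ mice and 284.9 in control mice (log2 ratio 0.31). A second probe set of Col5a1, under the filter, had 174.5 in RXRγ mice and 141.2 in control mice, and another stayed under 150 with 60.8 in RXRγ mice, against 39.4 in control mice. Col5a2 had 453.6 in RXRγ mice and 388.5 in control mice (log2 ratio 0.22), and its dimmer probe set had 122.2 in RXRγ mice and 85.0 in control mice. These 5 probe sets of the 2 main chains were all brighter in RXRγ mice.
Col5a3, a chain with a more restricted expression than Col5a1 and Col5a2, was the single gene past the limit of 0.4. Its signal was 254.2 in RXRγ mice and 141.3 in control mice, so it was at least 1.69-fold higher, counting the control signal as 150 (log2 ratio 0.85 as measured and 0.76 with that floor). Both signals lay close to the 2 levels used here, 250 and 150. The other probe set of Col5a3 was near background on both arrays, with 3.4 in RXRγ mice, against 10.6 in control mice, and averaging it in without a filter turned the log2 ratio to -0.40. The call for Col5a3 therefore rests on 1 probe set that passed the filter by a small margin.

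**Figure D3:**
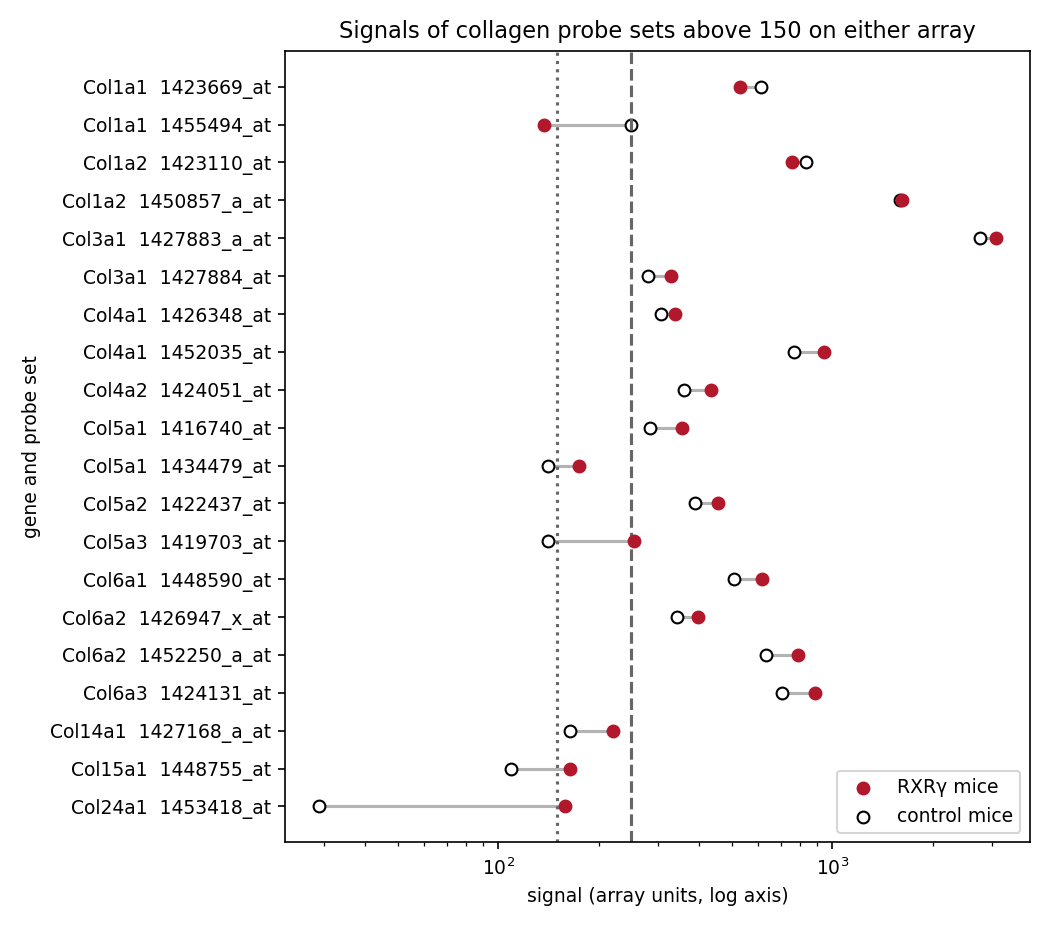
Signals of the collagen probe sets above 150 on either array (x axis, array units on a log axis; 1 row per probe set), with filled circles for RXRγ mice and open circles for control mice, a dotted line at 150 and a dashed line at 250. Filled circles lie to the right in all rows except both probe sets of Col1a1 and 1 of Col1a2, and Col24a1 has 158.3 in RXRγ mice and 29.1 in control mice.

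The probe sets of a gene give the only internal measure of precision here. For the 4 collagen genes with more than 1 probe set above 250, the ratios within a gene spanned 0.07 to 0.17 on the log2 scale. Over the 1213 genes of the arrays with several such probe sets the median span was 0.20. The log2 ratios of 8 collagen genes, 0.19 to 0.33, lay near or above that span, which is a range between probe sets and not an error of a gene's ratio. Of these, Col4a2, Col5a1, Col5a2, Col6a1 and Col6a3 had 1 probe set above 250 and so no span of their own. Probe sets of a gene share the RNA pool, and their span leaves out differences between animals and arrays.

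Of the 3 genes between 150 and 250, Col14a1 exceeded 150 on both arrays. Col15a1 and Col24a1 did so in RXRγ mice alone, so that the filter itself fixed their direction. Col14a1, a fibril-associated collagen that binds the surface of type I fibrils, had 220.5 in RXRγ mice and 163.9 in control mice (1.35-fold). A second probe set of Col14a1 had 93.9 in RXRγ mice and 63.9 in control mice, and the remaining one was near background. Col15a1, which links basement membranes to the fibrils beneath them, had 163.8 in RXRγ mice and 109.0 in control mice. With 150 in place of the control signal this is at least 1.09-fold. Col24a1, a fibrillar chain known from developing bone, had 158.3 in RXRγ mice and 29.1 in control mice, which allows only a bound of at least 1.06-fold.
The 28 genes under 150 had brightest signals from 2.4 to 112.7, and across all 42 genes 20 had a brightest signal under 50. Col8a1, a chain of vessel walls, had 112.7 in RXRγ mice and 84.9 in control mice at its brightest probe set. Col22a1, which is confined to tissue junctions such as that of muscle and tendon, had 84.4 in RXRγ mice and 108.0 in control mice. Col12a1, a fibril-associated collagen of tendon and fascia, had 100.4 in RXRγ mice and 86.8 in control mice. The chains of cartilage were low: Col2a1, Col9a1, Col9a2, Col9a3, Col10a1, Col11a1 and Col11a2 did not exceed 37.4 on either array. Col17a1, of the skin's hemidesmosomes, did not exceed 11.3. The transmembrane chain Col13a1, which acts at the neuromuscular junction, reached 13.2.

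Collagen chains are modified, folded, cut and cross-linked before they form fibrils, and the genes of these steps ran in both directions. Their counts are read against the 16.8% of all genes that were higher and the 20.1% that were lower, and with 2 to 7 measured genes per list they set no list apart. Of 7 measured genes of synthesis and folding, none was counted as higher and 2 as lower, and their median was -0.29 on the log2 scale. The collagen-specific chaperone gene Serpinh1 (HSP47) averaged 728.1 in RXRγ mice and 616.3 in control mice (log2 ratio 0.24). Ppib, a prolyl isomerase of the same compartment, had 423.4 in RXRγ mice and 330.3 in control mice (log2 ratio 0.35). P4hb, the β subunit of prolyl hydroxylase, had 927.9 in RXRγ mice and 1133.2 in control mice (-0.29). The 2 lower genes were Colgalt1, which adds galactose to hydroxylysine (179.6 in RXRγ mice and 277.9 in control mice, log2 ratio -0.63), and Tmem38b, an ion channel of the endoplasmic reticulum (472.4 in RXRγ mice and 727.3 in control mice, log2 ratio -0.56). Colgalt1 passed 250 in control mice alone, and its call was lost with the mean of both arrays above 250. Sec23a, a coat protein of vesicles leaving the endoplasmic reticulum, had a log2 ratio of -0.35.
Of 4 measured genes of propeptide cleavage and cross-linking, 1 was higher. Tgm2, a transglutaminase that cross-links matrix and many other proteins, averaged 1038.1 in RXRγ mice and 404.7 in control mice (log2 ratio 1.39), and its 4 probe sets above 250 ran from 1.22 to 1.68. Pcolce, which speeds removal of the C-propeptide of fibrillar collagens, had 802.0 in RXRγ mice and 611.0 in control mice (log2 ratio 0.38). The lysyl oxidase family gene Loxl1 had a log2 ratio of 0.05, and Sparc, a collagen-binding matrix protein, one of -0.01.
Of 4 measured genes of collagen breakdown, the fibroblast protease gene Fap was higher (330.7 in RXRγ mice and 197.6 in control mice, log2 ratio 0.74) and the protease inhibitor gene Timp2 lower (549.7 in RXRγ mice and 734.7 in control mice, log2 ratio -0.43). Fap passed 250 in RXRγ mice alone. Its call stayed with the mean of both arrays above 250 and was lost with both arrays above 250. The call for Timp2 was lost under loess centring and with the brightest probe set. The gelatinase gene Mmp2 and the inhibitor gene Timp3 had log2 ratios of 0.29 and 0.30. Of 2 measured receptor genes, the collagen-binding kinase gene Ddr1 was higher (378.5 in RXRγ mice and 252.1 in control mice, log2 ratio 0.59) and the integrin gene Itgb1 had a log2 ratio of -0.11. The call for Ddr1 rests on 1 of its 8 probe sets, and was lost without _x_at and _s_at probe sets.
Of 2 measured partners of type IV collagen in basement membranes, the laminin gene Lamb2 was lower, with 171.8 in RXRγ mice, against 283.0 in control mice (log2 ratio -0.72), and Nid1, which bridges laminin and type IV collagen, had a log2 ratio of 0.05. Lamb2 also passed 250 in control mice alone, and with the mean of both arrays above 250 its call was lost. The proteoglycans that coat fibrils ran in both directions. Lum (lumican) had 1770.8 in RXRγ mice and 699.1 in control mice (log2 ratio 1.34). Fmod (fibromodulin) was lower at all 5 of its probe sets above 250, with a mean of 473.6 in RXRγ mice, against 812.2 in control mice (log2 ratio -0.83). Bgn (biglycan) had a log2 ratio of 0.45, although its probe sets ran from 0.12 to 0.98, and Prelp had one of -0.22. Of the 6 measured genes of this list, 2 were higher and 1 was lower, and the median was 0.13. Only 1 was higher under median scaling, with the brightest probe set or with both arrays above 250.

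Marker lists of cell types were set beside the collagens. In RNA from whole muscle, fewer cells of a type and less RNA per cell cannot be told apart. The label of skeletal muscle was borne out by 10 of 10 fibre genes with signals of at least 5703.3 in RXRγ mice and 9977.6 in control mice at their brightest probe sets, among them Acta1 (10439.9 in RXRγ mice and 10998.7 in control mice). All 10 had log2 ratios below 0 (median -0.25), while 46.5% of all genes were above 0. Tnnt3, among the 10, had the highest signal of each array, 12766.1 in RXRγ mice and 15036.5 in control mice. Whether the shared direction of these genes goes with their brightness was not tested. Of the 10, 3 were counted as lower, Myh2, Ckm and Myh4 (-0.81, -0.75 and -0.42), against 20.1% of all genes. The probe sets of Ckm ran from -1.39 to -0.11 and those of Myh4 from -0.77 to -0.06, so that both calls rest on 1 of 2 probe sets.
Of the 10 fibroblast markers 8 were measured, 2 were higher and none lower, against 16.8% and 20.1% of all genes, with a median of 0.19. The higher ones were Lum and Pi16 (log2 ratio 0.42), while Pdgfra, the receptor that defines fibro-adipogenic cells, had 455.7 in RXRγ mice and 384.6 in control mice (0.24). Pi16 passed 250 in RXRγ mice alone, and with the mean of both arrays above 250 its call was lost, while that of Lum stayed. The matrix gene Dpt, at 967.8 in RXRγ mice and 1097.9 in control mice (-0.18), and Gsn (-0.03) lay below 0, and 3 of the 9 markers with a probe set were dimmer in RXRγ mice. The signals of these 9 markers, taking the brightest probe set of each, summed to 17595.2 in RXRγ mice and 16732.5 in control mice. Of these sums Lum made up 1770.8 in RXRγ mice and 699.1 in control mice. That gap exceeds the gap between the sums, so their direction rests on Lum. The measured markers of adipocytes, macrophages and Schwann cells had medians of 0.19, 0.24 and 0.22 (3, 3 and 2 genes, none past the limit). The adipocyte genes Retn, Fabp4 and Adipoq had log2 ratios of 0.22, 0.19 and 0.17, the macrophage genes Csf1r, Lyz2 and Mrc1 0.25, 0.24 and -0.06, and the myelin genes Pmp22 and Mbp 0.35 and 0.09.
Of 8 tendon markers 2 were measured, Fmod (-0.83) and Thbs4, which had 941.9 in RXRγ mice and 971.1 in control mice (-0.04). At the brightest probe set 7 of the 8 were dimmer in RXRγ mice, most of them under the filter, and the list summed to 2370.3 in RXRγ mice and 3351.2 in control mice. Without Fmod, left out after the values were seen, the sums were 1387.8 in RXRγ mice and 1707.4 in control mice. The tendon genes Tnmd and Comp, both under the filter, had 150.4 and 124.8 in RXRγ mice against 244.6 and 199.7 in control mice, but the tendon regulator Scx was near background on both arrays, at 22.7 in RXRγ mice and 17.4 in control mice. Chad, of cartilage and tendon matrix, was the single measured gene of the cartilage and bone list, with 155.6 in RXRγ mice, against 336.7 in control mice (log2 ratio -1.11), and passed 250 in control mice alone. The call for Chad was lost with the mean of both arrays above 250.
No endothelial marker reached 250. Their brightest signals ran from 43.1 to 180.6 in RXRγ mice and from 65.7 to 221.8 in control mice, and 7 of 8 were dimmer in RXRγ mice. As background for this count and that of the tendon list, the log2 ratio was above 0 for 53.3% of all genes without a filter. With the filter at 150 this share was 48.1%. Both shares average the probe sets of a gene, whereas the marker counts take the brightest probe set. The 3 measured markers of pericytes and smooth muscle, Rgs5, Acta2 and Pdgfrb, had log2 ratios of -0.36, -0.23 and -0.09. No marker in any list was at 0, and the lists share Dcn and Lum (proteoglycans and fibroblasts) and Fmod and Kera (proteoglycans and tendon). The part of these cell types in the collagen values was not tested.

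**Figure D4:**
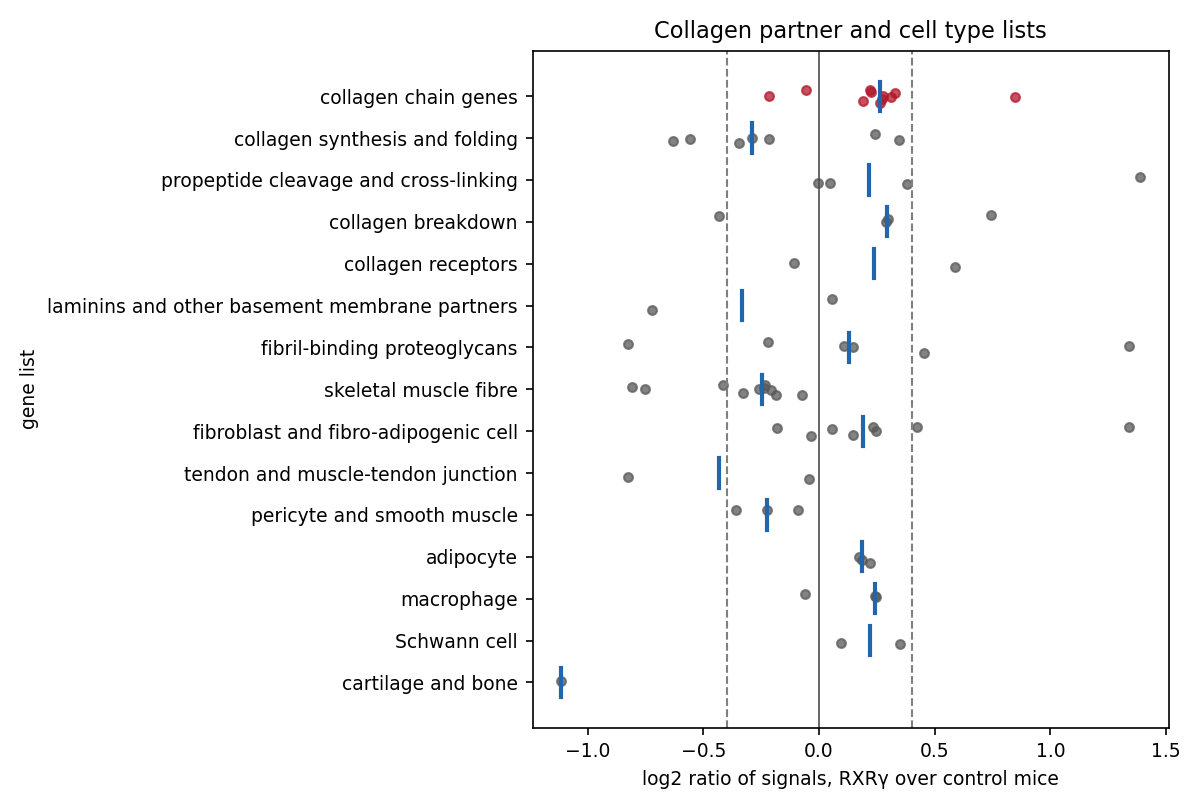
Log2 ratios, RXRγ over control (x axis, log2), of the measured members of the collagen family (red points), of 6 lists of collagen partners and of 8 cell type lists (grey points, spread vertically for legibility), with blue bars at the list medians and dashed lines at 0.4 in either direction. The medians of collagens (0.26) and of fibroblast, adipocyte, macrophage and Schwann cell markers lie to the right of 0. So do those of cleavage and cross-linking (0.21), breakdown (0.30), receptors (0.24) and proteoglycans (0.13). To the left lie muscle fibre genes (-0.25), synthesis and folding (-0.29) and basement membrane partners (-0.33). Tendon (-0.43), pericyte and smooth muscle (-0.23) and cartilage and bone (-1.11) also lie to the left.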

How the data were processed

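The authors made the deposited intensity values with the Affymetrix Gene Chip software, which per the study's methods compares perfectly matched with mismatched oligonucleotides. The values are linear, with a mean of 100.0 on each array once 2% of probe sets at each end are left out. All 45101 probe sets of each array were read. The platform annotation names 1 gene for 34958 of them, several for 932 and none for 9211, and only the first kind was used. The software's calls of presence were not used.

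Log2 ratios were computed without a pseudocount, and a probe set with a signal of 0 has none. For each gene the ratios of probe sets exceeding 250 on either array were averaged and counted at 0.4; genes with probe sets past it in both directions were counted as neither. Folds against a signal under 150 are given as bounds, while gene values, counts and medians use the measured ratio. All measured collagen genes are named, with those above 150, and from each partner list up to 4 and each cell type list up to 3 measured genes with the largest ratios. Further genes were chosen after their values were seen. The members and lists were chosen with earlier results of these data known. The number of arrays limits the precision.

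The steps were tested on simulated data. Alternatives changed 1 choice at a time, with quantile normalization and loess by limma 3.58.1 in R 4.3.3. Python 3.11.15, pandas 2.3.3, numpy 2.4.6 and matplotlib 3.10.9 were used. RefSeq promoters were matched by symbol.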

Additional observations from a re-analysis of the deposited data

How the results depend on the processing

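No paired analysis was possible because each genotype has 1 array. The count of collagen genes higher in RXRγ mice was 1 under both scalings, loess centring, the pseudocount of 32, the floor of 150, the brightest probe set, without _x_at and _s_at probe sets, and with probe sets counted. It was 4 when the filter was lowered to 150 (14 collagen genes measured), against 18.3% of all genes. Among the 4 are Col15a1 and Col24a1, which passed 150 in RXRγ mice alone. Without a filter it was 7 of 42, against 28.6% of all genes. The count was 0 when the filter was raised to 500, when both arrays or their mean had to exceed 250, and at a log2 limit of 1. Under these settings 5.05% to 16.4% of all genes were higher. The count of lower genes was 0, except for 1 with the filter at 150 (Col1a1, -0.54), against 19.2% of all genes. Without a filter 10 of 42 were lower, against 22.6% of all genes. The median log2 ratio ran from 0.16 (median scaling) to 0.30 (loess), and was 0.08 without a filter, where most of the 42 genes are near background. Without a filter the median of all genes was 0.05, and 22 of the 42 collagen genes were above 0, against 53.3% of all genes. Under median scaling the median of all genes was -0.14, and 9 of 11 collagen genes stayed above 0. Of 126 log2 ratios of single collagen genes under the alternatives, 2 changed sign, that of Col5a3 without a filter (-0.40), where a probe set near background is averaged in, and that of Col1a2 with the brightest probe set (0.02, against -0.06). Apart from Col5a3, the ratio of the signals never changed by a factor of 1.5, but log2 ratios this small can shift by more in proportion, as that of Col1a1 did with the filter at 150 (-0.54, against -0.22) and that of Col3a1 under median scaling (0.09, against 0.19). Of 246 counts and medians of the partner lists, 48 moved, a count by over 1.5 times and a median by that factor in the ratio of signals. By this rule a median could change sign and still pass as unmoved. The receptor median went from 0.24 to -0.11 with the filter at 500. That of basement membrane partners went from -0.33 to 0.05 with the mean above 250, and that of synthesis and folding from -0.29 to 0.03 without a filter. The partner lists hold 2 to 7 measured genes each. Signals under 250 limit what can be said of the other 31 collagen genes.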

Other observations

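Partner genes under the signal level of 250 are given here as values only, chosen after they were seen. Most of those named were dimmer in RXRγ mice, which was not so for the lists they come from. At the brightest probe set, measured or not, 11 of 20 genes of synthesis and folding were brighter there. So were 8 of 12 of propeptide cleavage and cross-linking, 5 of 9 receptors, 8 of 14 basement membrane partners and 5 of 9 proteoglycans. For all genes without a filter, with the probe sets of a gene averaged, the share above 0 was 53.3%. P4ha1, a catalytic subunit of prolyl hydroxylase, had 96.1 in RXRγ mice and 239.0 in control mice, while P4ha2 had 191.5 in RXRγ mice and 195.1 in control mice. The cross-linking enzyme gene Lox had 114.9 in RXRγ mice and 195.3 in control mice, and Pcolce2, a relative of Pcolce, had 109.8 in RXRγ mice and 182.1 in control mice. The collagen receptor gene Ddr2 had 227.7 in RXRγ mice and 229.7 in control mice. Among basement membrane genes, Lama2, of the main laminin of muscle fibres, had 235.0 in RXRγ mice and 225.4 in control mice, Lamc1 had 202.0 in RXRγ mice and 226.0 in control mice, and Hspg2, which encodes perlecan, had 187.9 in RXRγ mice and 127.4 in control mice. Kera and Aspn, proteoglycans of fibrous tissue, had 104.3 and 107.7 in RXRγ mice, against 208.5 and 163.2 in control mice.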
